A study of Danio rerio with 6 samples.

Results

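The genes described here encode the catalytic, scaffold and regulatory subunits of the serine/threonine protein phosphatases, taken by name. They are the genes of the deposited table whose symbol begins with ppp and a family number from 1 to 6, or with ppm1, in either letter case, which gave 102 of 23150 genes. RNA was measured by stranded poly(A) RNA-seq in whole zebrafish embryos at 18 hpf (hours post fertilization), from pools of embryos freed of chorion and yolk. There were 3 wildtype libraries (dusp2+/+;dusp6+/+) and 3 libraries from *dusp2um287/um287;dusp6um286/um286* embryos, called mutant below, which carry CRISPR deletions in the coding sequence of 2 MAP kinase phosphatase genes. Both parents of the mutant embryos were homozygous for both alleles, so no intact maternal copy of either gene was present. The paper reports that a large fraction of embryos from this cross stall at the first cell division and die before gastrulation ends. In wildtype clutches it reports only a small loss. The mutant pools were collected after gastrulation, so they represent the surviving mutant embryos and not all of them. The part of this loss in the results below was not tested. The wildtype fish were Ekkwill, and the strain background of the mutant line is not given in the sources used here. Genotype therefore cannot be told apart from a difference of stock.

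Serine/threonine phosphatases gain their specificity by assembly. A small set of catalytic subunits (PP1, PP2A, calcineurin, PP4, PP5 and PP6) is shared among a large set of regulatory subunits that choose the substrate and the place in the cell, whereas most enzymes of the PPM family act as lone chains that need magnesium or manganese. The products of *dusp6* and *dusp2* remove phosphate from ERK and related MAP kinases, and PP2A and PP1 act on the same cascade, PP2A on several of its kinases and PP1, held by SHOC2 and a RAS relative, on RAF.

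Libraries are named by the letters of their columns, which run A, B, C for the wildtype replicates and A, C, D for the mutant replicates. Total expected counts per library ranged from 36310355 to 45161306, and 20021 genes passed the filter on low counts. Levels are given in CPM, read counts brought to a common library size with TMM scaling factors, and are compared between libraries and not between genes. The deleted genes matched the labels: *dusp6* stood at 212, 222 and 229 CPM in wildtype and at 28.5, 32.4 and 32.4 CPM in mutant libraries, and *dusp2* had 51, 35 and 71 counts in wildtype and 3, 7 and 7 in mutant libraries. Their log2 fold changes were −2.83 ± 0.059 (SE, n = 3 and 3) and −3.19 ± 0.38, with adjusted p = 3.7e-10 and 0.00011 by the quasi-likelihood test of edgeR, Benjamini-Hochberg adjusted over all genes tested, which was used throughout. Markers of muscle, neural tissue, notochord and floor plate, blood and epidermis were detected in every library. Summed over their markers, blood stood at 67.3 to 76.1 CPM in wildtype and 95.2 to 113 CPM in mutant libraries, and germ cells at 8.64 to 10.8 and 21.2 to 32.7 CPM, and their part in the results below was not tested. Whether the libraries came from separate pools of embryos is not stated, so p-values measure only the spread between these libraries, which may be technical. For any gene taken alone, exact permutation of 3 against 3 libraries allows no p smaller than 0.1. The table comes from bulk RNA, in which fewer cells of a type and less RNA per cell cannot be told apart.

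Among the phosphatase genes, the PP6 regulatory subunit gene *ppp6r2b* rose by more than 3-fold in the mutants, and most other members moved little. Of the 102 members, 101 passed the filter, and the exception was *ppp1r3db*, with 2 to 5 counts in wildtype and 6 to 14 in mutant libraries. At over 2-fold and an adjusted p under 0.05, 5 of the 101 were called, or 4.95%, and the share over all genes tested was also 4.95%. Among the 101 members, 4 were called higher and 1 lower. Among the 20021 genes tested, 508 (2.54%) were called higher and 484 (2.42%) lower. Counting any fold at an adjusted p under 0.05, 32 members (31.7%) passed against 34.5% of all genes. This comprised 20 higher members (19.8%, against 17.4%) and 12 lower members (11.9%, against 17.1%). The libraries of the 2 genotypes did not overlap in 53 members (52.5%), against 49.1% of all genes. The 4, the 20 and the 53 each include PPP1R37, *ppp1r18* and *ppp1r27*, which passed the filter on low counts through their mutant libraries alone. The 53 also include *ppm1nb* and *ppm1j*, whose few counts lay near that filter. These counts therefore cannot show an excess of members over all genes. The widest gap from the background among these shares was that of the lower members at any fold. The median log2 fold change of the 101 members was 0.01, and that of all genes was 0. The differences of members had a smaller typical size than those of all genes, with a median absolute log2 fold change of 0.12 against 0.21. These medians were not matched for level. Of 5 equal bins by mean CPM, the lowest held 12 members and the highest 32, and 14.3% and 0.375% of all genes there were called at over 2-fold.

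The share of genes that passed at any fold was also read by level, with all tested genes divided by mean CPM into 5 bins of equal size. Over all genes this share was 18.4%, 28.4%, 37%, 41.6% and 46.8% from the lowest bin to the highest. Among the members it was 5 of 12 (41.7%), 5 of 17 (29.4%), 6 of 16 (37.5%), 8 of 24 (33.3%) and 8 of 32 (25%). The members thus lay above all genes in the lowest bin, close to them in the next 2 and below them in the upper 2, and these differences were not tested. At over 2-fold, 4 of the 12 members of the lowest bin were called (33.3%, against 14.3% of all genes there). Of these, PPP1R37, *ppp1r18* and *ppp1r27* passed the filter on low counts through their mutant libraries alone. Their rise was partly set by that filter, so neither share of the lowest bin can show an excess of members over all genes. The called member outside that bin, *ppp6r2b*, lay in the middle bin, where 6.25% of members and 2.52% of all genes were called.

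**Figure D1:**
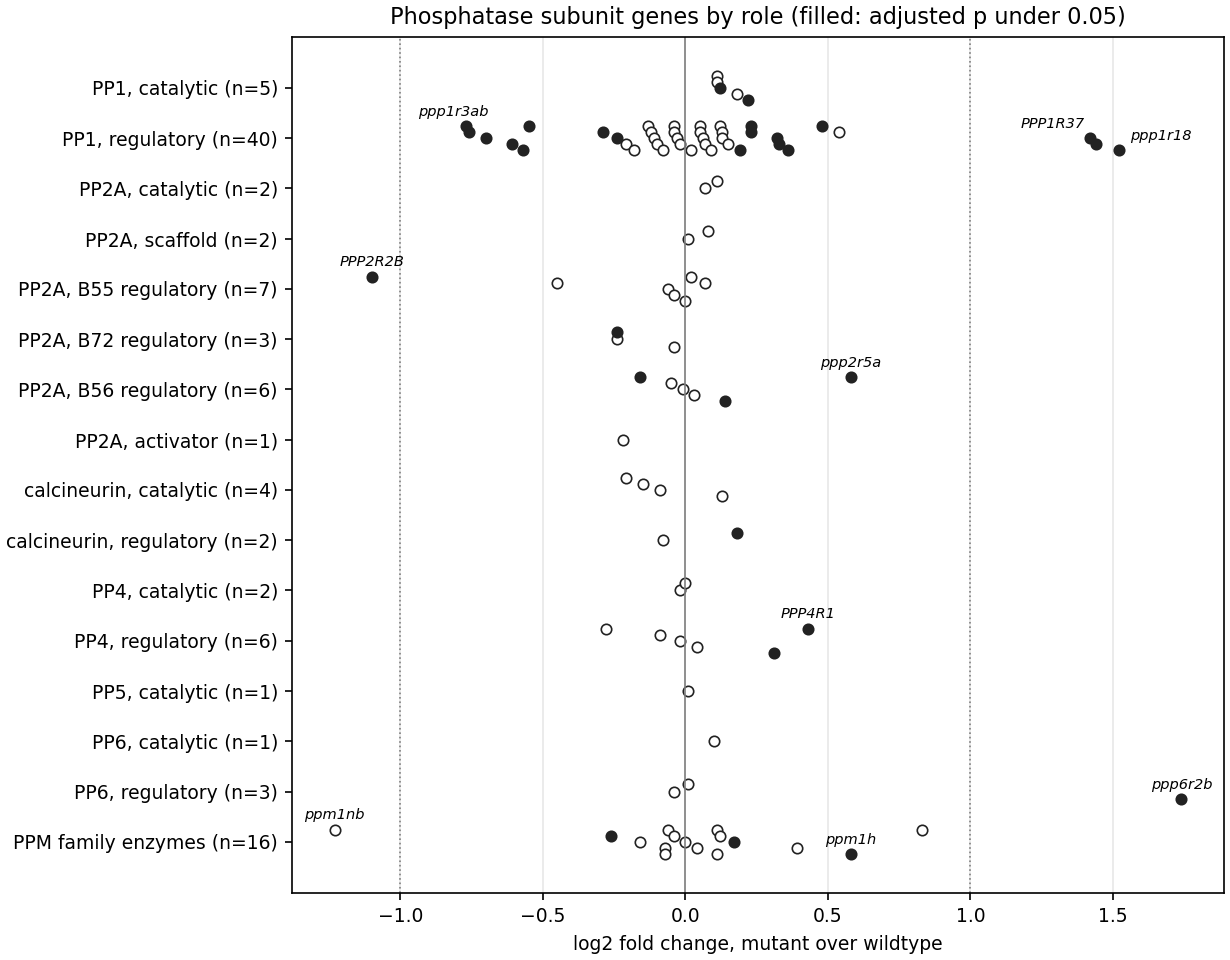
Each point is a phosphatase subunit gene, placed by its log2 fold change of mutant over wildtype (horizontal axis) and its enzyme and role (rows, with the number of genes tested); filled points had an adjusted p under 0.05 and dotted lines mark a 2-fold change. Most points lie close to 0, *ppp6r2b* lies farthest to the right at 1.74, and *ppm1nb*, farthest to the left at −1.23, is open.

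PP6 is a PP2A-like phosphatase whose catalytic subunit is held by SAPS-domain regulatory subunits. The gene *ppp6r2b*, 1 of a pair of zebrafish copies of the SAPS2 gene, had 2.90, 2.51 and 2.87 CPM in wildtype replicates A, B and C and 9.51, 8.96 and 9.21 CPM in mutant replicates A, C and D. These rested on 107.74, 93.99 and 132.16 expected counts in wildtype and on 396.66, 391.03 and 345.03 in mutant libraries. The groups were far apart, and the libraries within each were close together. The mean rose from 2.76 ± 0.218 to 9.23 ± 0.276 CPM (SD, n = 3), a fold of 3.34 and a log2 fold change of 1.74 ± 0.105 (SE, 95% interval 1.51 to 1.97, adjusted p = 1e-06 by edgeR). It was the only member called at over 2-fold in all 12 alternative fits, where the log2 fold change lay between 1.67 and 1.77.

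The other copy, *ppp6r2a*, had 46.2, 49.6 and 46.4 CPM in wildtype and 45.1, 48.4 and 49.6 CPM in mutant libraries. The groups overlapped, and the log2 fold change was 0.01 (95% interval −0.11 to 0.13). Summed over the pair, which does not depend on how reads were divided between the copies, the level was 49.1, 52.1 and 49.2 CPM in wildtype and 54.6, 57.4 and 58.8 CPM in mutant libraries. Every mutant library was above every wildtype library in this sum. The SAPS3 gene *ppp6r3* had log2 fold change −0.04, and the catalytic gene *ppp6c* had 0.10 with adjusted p = 0.084 by edgeR, so neither passed the test.

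**Figure D2:**
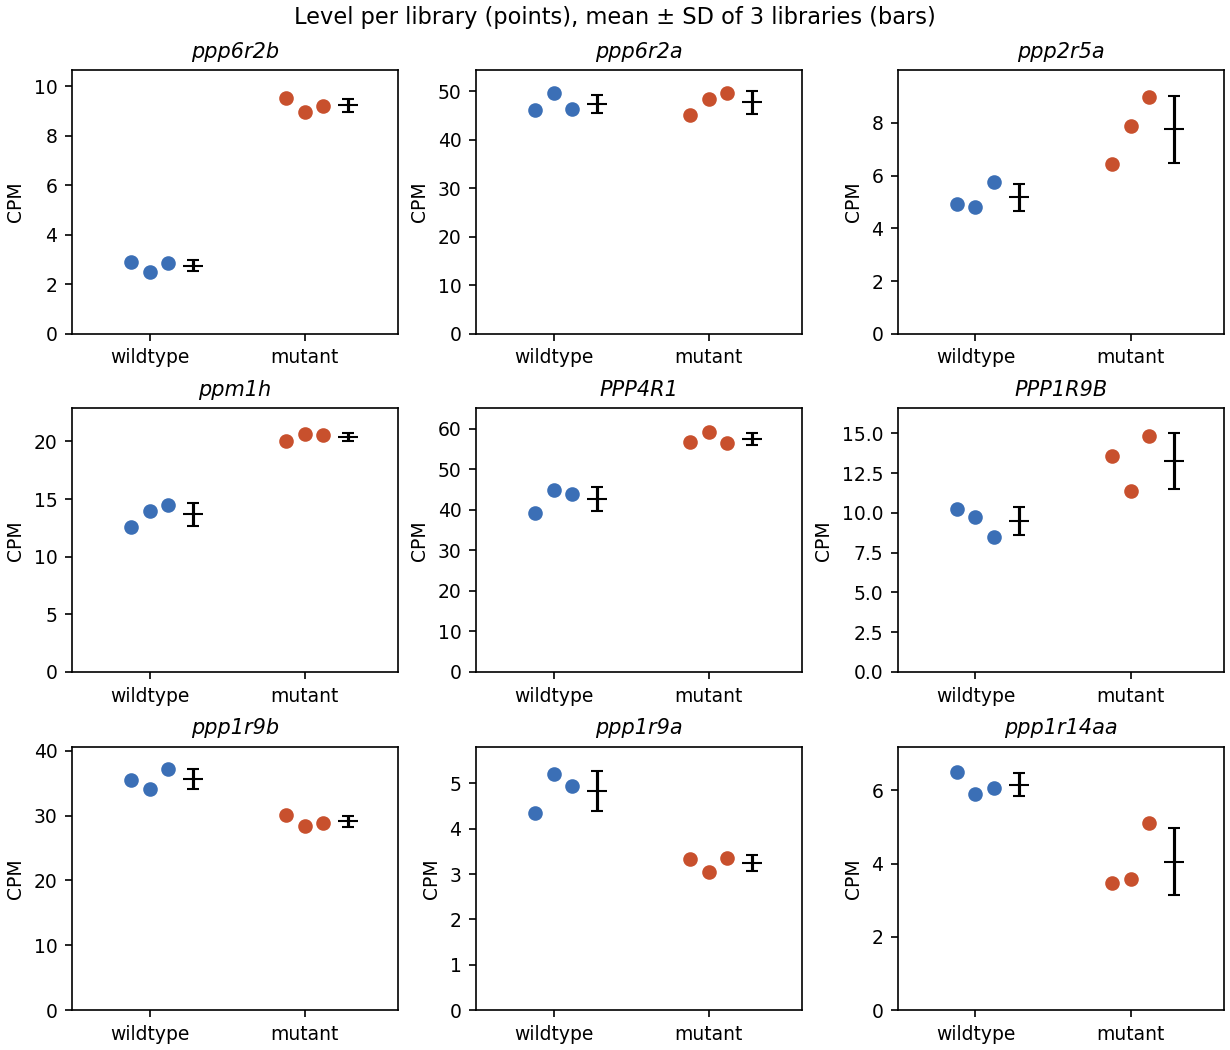
CPM of 9 subunit genes in each of the 3 wildtype and 3 mutant libraries (points), with the mean and SD beside them; each panel has its own vertical axis from 0. The *ppp6r2b* libraries separate by more than 3-fold, those of *ppp6r2a* overlap, and PPP1R9B is higher in the mutants where *ppp1r9b* and *ppp1r9a* are lower.

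The catalytic subunits moved little. Of the 15 catalytic genes of the PPP family, 2 rose (13.3%, against 17.4% of all genes), both encoding PP1, and the other 13 did not pass the test. Their log2 fold changes ranged from −0.21 to 0.22, and 11 of the 15 were positive, as were 9991 of all 20021 genes tested. The 11 include *ppp4ca*, at 0, and *ppp5c*, at 0.01, which changed sign in some alternative fits. By other tests of the 15 genes, 2 passed with the DESeq2 Wald test (30.5% of all genes did) and 3 with limma-voom (34.4%). In edgeR, 8 of the 15 had an unadjusted p under 0.05, as did 8941 of all 20021 genes tested.

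PP1 is the enzyme that most regulatory genes of this set serve. The alpha-type gene *ppp1cab* had 117, 114 and 116 CPM in wildtype and 145, 132 and 128 CPM in mutant libraries. Its groups did not overlap, and it rose by 0.22 ± 0.0516 on the log2 scale (adjusted p = 0.0066 by edgeR). Its paralog *ppp1caa* had 340.5, 363 and 349.6 CPM in wildtype and 384, 373 and 388 CPM in mutant libraries. It rose by 0.12 ± 0.0414 (adjusted p = 0.041 by edgeR), a call that was lost under upper-quartile scaling and when wildtype replicate A or C or any mutant replicate was left out, with an adjusted p of up to 0.14. The remaining PP1 genes *ppp1cb*, *ppp1cbl* and *ppp1cc* had log2 fold changes of 0.11, 0.18 and 0.11, with adjusted p = 0.061, 0.077 and 0.18 by edgeR. Without mutant replicate D these 3 genes passed as well, with adjusted p = 0.042, 0.016 and 0.02. All 5 PP1 catalytic genes were positive in every alternative fit. Their summed level was 730.1, 754 and 753 CPM in wildtype and 838, 812 and 809 CPM in mutant libraries, a ratio of means of 1.1. All 3 mutant sums lay above all 3 wildtype sums.

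For PP2A the catalytic genes *ppp2ca* and *ppp2cb* had log2 fold changes of 0.07 and 0.11. Neither passed the test (adjusted p = 0.33 and 0.095 by edgeR), although *ppp2cb* did without mutant replicate D, at adjusted p = 0.024. Their 95% intervals were −0.05 to 0.19 and 0.01 to 0.21. The calcineurin catalytic genes, whose products are switched on by calcium and calmodulin, did not pass either. They were *ppp3ca* at −0.09, *ppp3cb* at −0.21, *ppp3cca* at −0.15 and *ppp3ccb* at 0.13. The values of *ppp4ca* (0), *ppp4cb* (−0.02) and *ppp5c* (0.01), the last a phosphatase that works with the chaperone Hsp90, were close to no difference, with intervals within −0.12 to 0.12. Of the catalytic genes that did not pass, *ppp6c* (adjusted p = 0.046) was also past the threshold without mutant replicate D.

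**Figure D3:**
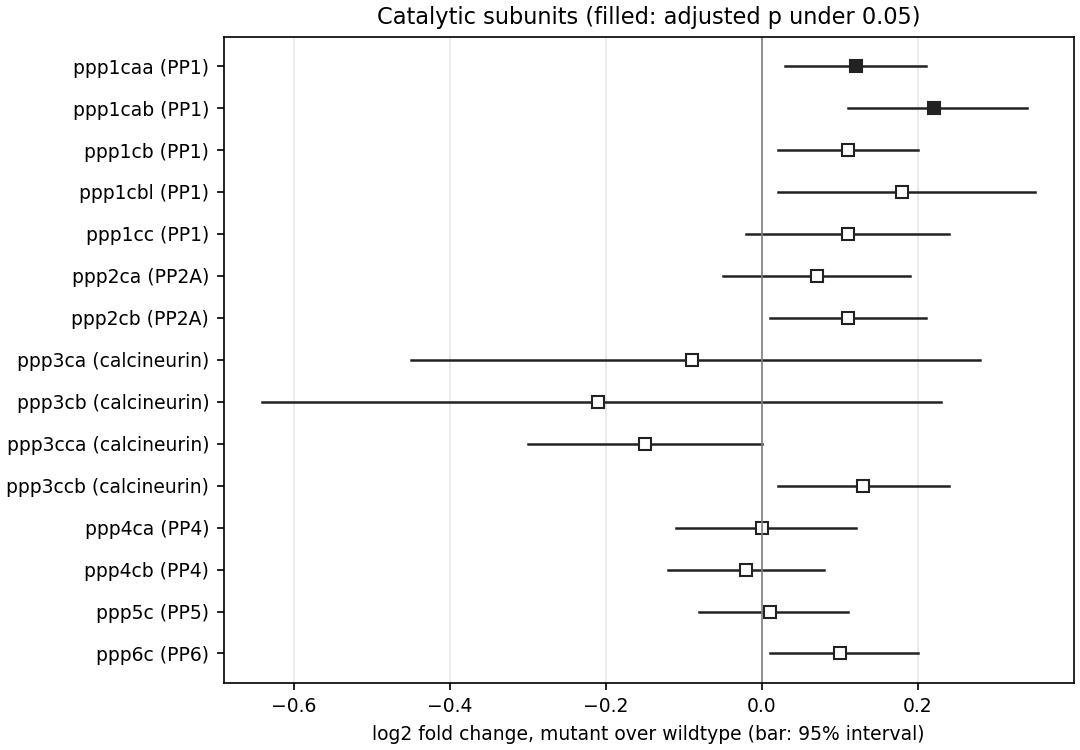
Log2 fold change of mutant over wildtype (squares) with its 95% interval (bars) for the 15 catalytic subunit genes, grouped by enzyme; filled squares had an adjusted p under 0.05. All 5 PP1 genes lie to the right of 0, from 0.11 to 0.22, and *ppp1cab* and *ppp1caa* are filled.

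Among the regulatory and inhibitory genes of PP1, 40 of 41 were tested. Of these, 10 rose (25%, against 17.4% of all genes) and 8 fell (20%, against 17.1%), and 22 did not pass. The 10 include PPP1R37, *ppp1r18* and *ppp1r27*, which passed the filter on low counts through their mutant libraries alone. The share that rose therefore cannot show an excess over all genes. Paralogs and related subunits moved in opposite directions in 3 of the gene groups below.

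Spinophilin and neurabin are actin-binding scaffolds that in mammals bring PP1 to dendritic spines. The table holds 2 rows for the spinophilin symbol, in capitals and in lower case, and the files do not say how they differ. The row PPP1R9B had 10.2, 9.71 and 8.49 CPM in wildtype and 13.6, 11.3 and 14.8 CPM in mutant libraries, a rise of 0.48 ± 0.109 on the log2 scale (adjusted p = 0.0058 by edgeR). The row *ppp1r9b* had 35.5, 34.1 and 37.2 CPM in wildtype and 30.1, 28.4 and 28.9 CPM in mutant libraries, a log2 fold change of −0.29 ± 0.0558 (adjusted p = 0.0024 by edgeR). Libraries of the 2 genotypes did not overlap in either row, which was a condition for naming these rows. Both calls stood in all 12 alternative fits. The rows together gave 45.7, 43.8 and 45.7 CPM in wildtype and 43.7, 39.8 and 43.7 CPM in mutant libraries, so the sum differed less than its parts. The neurabin gene *ppp1r9a* had 4.35, 5.20 and 4.94 CPM in wildtype and 3.33, 3.05 and 3.36 CPM in mutant libraries. It fell by 0.57 on the log2 scale, with SE 0.124 and adjusted p = 0.0045 by edgeR.

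The ppp1r14 genes encode small inhibitors that in mammals block PP1 and myosin phosphatase once phosphorylated by protein kinase C. Of the 5 genes, 1 rose (20%, against 17.4% of all genes) and 2 fell (40%, against 17.1%). The gene *ppp1r14aa*, a copy of the CPI-17 gene known from smooth muscle, had 6.49, 5.90 and 6.07 CPM in wildtype and 3.48, 3.58 and 5.10 CPM in mutant libraries. Mutant replicate D was nearest to wildtype, without overlap, and the log2 fold change was −0.61 ± 0.147 (adjusted p = 0.0082 by edgeR). Its paralog *ppp1r14ab* had log2 fold change 0.05 and did not pass. The gene *ppp1r14ba* had 2.12, 1.92 and 2.33 CPM in wildtype and 1.37, 1.56 and 0.988 CPM in mutant libraries, a log2 fold change of −0.70 ± 0.204 (adjusted p = 0.021 by edgeR, and up to 0.087 without wildtype replicate A or C). In contrast, *ppp1r14c*, whose mammalian counterpart KEPI was found in brain as a gene responsive to morphine, had 46.1, 48.1 and 48.9 CPM in wildtype and 57.2, 56.7 and 66.4 CPM in mutant libraries. It rose by 0.33 ± 0.064 (adjusted p = 0.0023 by edgeR).

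The ppp1r3 genes encode subunits that hold PP1 on glycogen, where it acts on glycogen synthase and phosphorylase. Of 6 tested, 2 rose (33.3%, against 17.4% of all genes) and 2 fell (33.3%, against 17.1%). The 2 that fell were the copies of the gene for the striated muscle form. The gene *ppp1r3ab* had 6.17, 4.75 and 4.16 CPM in wildtype and 2.56, 3.07 and 3.18 CPM in mutant libraries, a log2 fold change of −0.77 ± 0.164 (adjusted p = 0.0042 by edgeR). The gene *ppp1r3aa* had 1.31, 1.201 and 0.914 CPM in wildtype and 0.719, 0.596 and 0.694 CPM in mutant libraries. Its log2 fold change was −0.76 ± 0.256 (adjusted p = 0.038 by edgeR), a call lost with the DESeq2 Wald test and when any library but wildtype replicate C was left out. Neither gene's groups overlapped. The summed CPM of the muscle markers *myod1*, *myog*, *actc1b*, *mylpfa* and *tnnt3a* ranged from 1077 to 1175 in wildtype and from 499 to 949.8 in mutant libraries. Most of this sum was *actc1b*, with a mean of 782 CPM in wildtype and 561 CPM in mutant libraries. Of these 5 markers, none at 0 in any library, *myog* and *mylpfa* fell, with log2 fold changes of −0.64 and −0.68. The other 3 did not pass the test and differed in sign: *actc1b* had −0.48, *myod1* 0.04 and *tnnt3a* 0.51. Mutant replicate D had the lowest marker sum. It was the highest of the mutants for *ppp1r3ab* by a small margin (3.18 CPM, against 3.07 in replicate C). For *ppp1r3aa* it lay between mutant replicates A and C. The part of muscle content in these values was not tested. The liver-type gene *ppp1r3b* rose by 0.23 and *ppp1r3ca*, a copy of the PTG gene, by 0.19 (adjusted p = 0.025 and 0.048 by edgeR). Both calls were lost without wildtype replicate A or B or mutant replicate A or C, and that of *ppp1r3ca* also without wildtype replicate C, under 2 other settings of filter and scaling and with the DESeq2 Wald test.

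**Figure D4:**
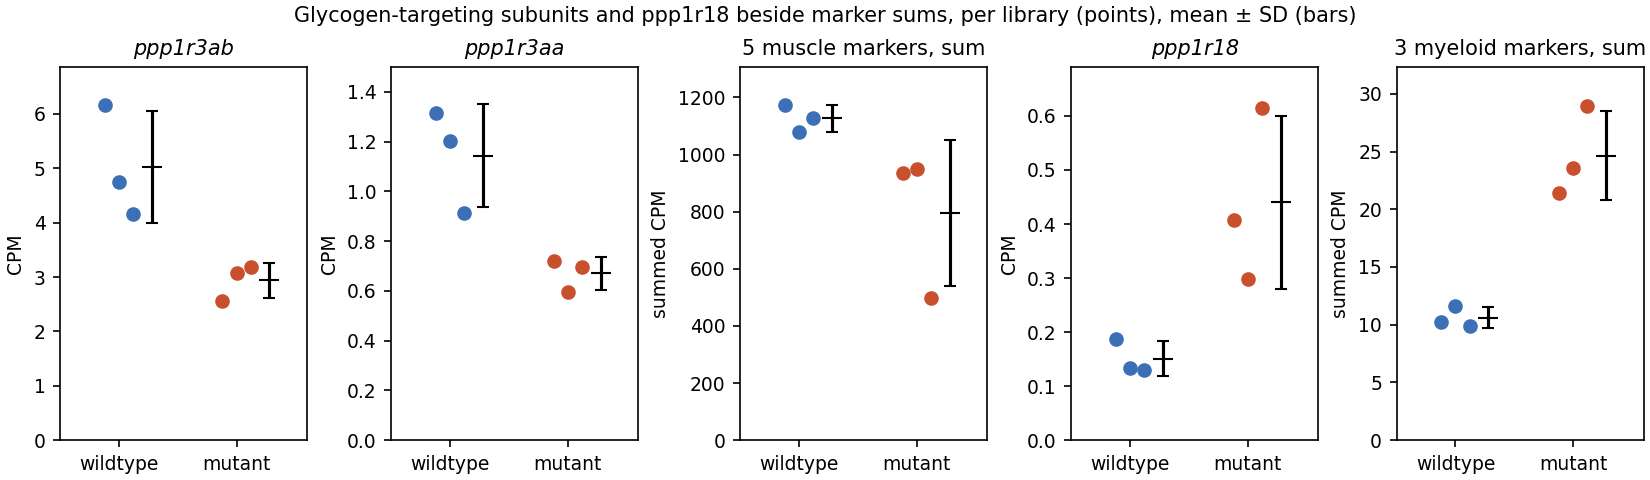
CPM of *ppp1r3ab*, *ppp1r3aa* and *ppp1r18* in each library (points, with mean and SD of 3 libraries), beside the summed CPM of 5 muscle and 3 myeloid markers; each vertical axis starts at 0. The muscle sum is lower in all 3 mutant libraries and lowest in replicate D at 499 CPM, and the myeloid sum is higher in all 3.

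Of the other PP1 genes, *ppp1r13l* encodes iASPP, an inhibitor of p53 that in mammals is prominent in skin. It had 49.8, 53.9 and 50.1 CPM in wildtype and 59.3, 62.1 and 76.1 CPM in mutant libraries, a rise of 0.36 ± 0.0821 (adjusted p = 0.0061 by edgeR). Replicate D was the highest. The epidermis markers *krt4*, *cyt1* and *tp63* summed to between 15170 and 15907 CPM in wildtype and between 20625 and 25239 CPM in mutant libraries, also highest in replicate D. Most of this sum was *krt4*, with a mean of 10410 CPM in wildtype and 16175 CPM in mutant libraries. Of these 3 markers, none at 0, *krt4* and *cyt1* rose, and *tp63* did not pass, at a log2 fold change of 0.05. The part of these markers in the result was not tested. The related *ppp1r13ba* and *ppp1r13bb* did not pass, at −0.04 and 0.13.

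The gene *ppp1r15a* encodes GADD34, a stress-induced subunit that directs PP1 to the translation factor eIF2 alpha. It had 18.0, 16.9 and 17.5 CPM in wildtype and 19.9, 22.4 and 23.4 CPM in mutant libraries, a rise of 0.32 ± 0.0735 (adjusted p = 0.0059 by edgeR). The row PPP1R15B, named for the constitutive form CReP, had log2 fold change −0.10 and did not pass. The inhibitor-3 gene *ppp1r11* fell by 0.24, with adjusted p = 0.021 by edgeR, a call lost without wildtype replicate B or C or mutant replicate C. The gene *ppp1r42* had 2.09, 2.06 and 2.00 CPM in wildtype and 1.51, 1.42 and 1.25 CPM in mutant libraries, a log2 fold change of −0.55 ± 0.172 (adjusted p = 0.029 by edgeR). Its call was kept only without mutant replicate A among the 6 fits that left out a library, and was lost with the DESeq2 Wald test (adjusted p = 0.079). Inhibitor-2 (*ppp1r2*), SDS22 (*ppp1r7*), NIPP1 (*ppp1r8a* and *ppp1r8b*), PNUTS (*ppp1r10*) and the myosin phosphatase targeting genes (*ppp1r12a*, PPP1R12B and *ppp1r12c*) did not pass, with log2 fold changes from −0.08 to 0.13.

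The largest fold changes among PP1 genes rested on few reads. The gene *ppp1r18* encodes phostensin, an actin-binding PP1 partner described in human blood cells, and had 7, 5 and 6 counts in wildtype and 17, 13 and 23 in mutant libraries. Its log2 fold change was 1.52 ± 0.427 (adjusted p = 0.017 by edgeR). The myeloid markers *spi1b*, *lcp1* and *mpx* summed to between 9.9 and 11.6 CPM in wildtype and between 21.4 and 28.9 CPM in mutant libraries. Of these 3 markers, none at 0, *spi1b* and *lcp1* rose, and *mpx* did not pass, at a log2 fold change of 0.09. The part of these markers in the *ppp1r18* result was not tested. The gene *ppp1r27*, for a PP1 inhibitor that in human binds dysferlin, had 6.99, 2.53 and 9 expected counts in wildtype and 15.02, 23.55 and 13.97 in mutant libraries. It rose by 1.44 ± 0.424 (adjusted p = 0.022 by edgeR). The row PPP1R37, for a leucine-rich repeat inhibitor of PP1, had 6, 4 and 4 counts in wildtype and 14, 13 and 12 in mutant libraries. It rose by 1.42 ± 0.422 (adjusted p = 0.023 by edgeR), and the lower-case row *ppp1r37*, at 43.0, 44.3 and 41.7 CPM in wildtype and 49.0, 48.7 and 53.1 CPM in mutant libraries, rose by 0.23 (adjusted p = 0.0071 by edgeR). The 3 rows with few reads did not overlap between groups. They passed the filter on low counts through their mutant libraries alone, so their rise and lack of overlap were partly set by that filter. Each lost its call under the DESeq2 Wald test and in at least 3 of 6 fits that left out a library. Wildtype replicate B was among the libraries whose removal ended each of these calls, with adjusted p of up to 0.077, 0.096 and 0.11 over the 6 fits. The rise of *ppp1r37* held in all 12.

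PP2A is built from a catalytic subunit, a scaffold and a regulatory B subunit. The scaffold genes *ppp2r1a* and *ppp2r1b* did not pass, at 0.08 and 0.01, and neither did the activator gene *ppp2r4* (−0.22, adjusted p = 0.071 by edgeR). Products of B56 genes in vertebrates act in Wnt signalling and in the protection of centromeric cohesion. Of 6 genes, 2 rose (33.3%, against 17.4% of all genes) and 1 fell (16.7%, against 17.1%). The alpha-type gene *ppp2r5a* had 4.94, 4.80 and 5.77 CPM in wildtype and 6.42, 7.86 and 8.97 CPM in mutant libraries. It rose by 0.58 ± 0.133 (adjusted p = 0.0065 by edgeR) and passed in all 12 alternative fits. The delta-type gene *ppp2r5d* had 60.9, 63.1 and 63.0 CPM in wildtype and 69.5, 67.9 and 69.1 CPM in mutant libraries, a rise of 0.14 (adjusted p = 0.024 by edgeR). That call was kept only without mutant replicate D among the 6 fits that left out a library. The epsilon-type gene *ppp2r5eb* had 135, 134 and 135 CPM in wildtype and 121, 121 and 121 CPM in mutant libraries. It fell by 0.16 on the log2 scale, a small difference with a narrow spread (adjusted p = 0.0092 by edgeR), whereas its copy *ppp2r5ea* did not pass, at −0.01.

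Of the 7 B55 genes, whose products oppose mitotic kinases and act on kinases of the ERK cascade, PPP2R2B passed. It fell, which made 14.3% of the group, against 17.1% of all genes. This row, named for the beta form expressed in mammalian neurons, had 0.939, 1.68 and 1.46 CPM in wildtype and 0.312, 0.596 and 1.01 CPM in mutant libraries. Wildtype replicate A lay below mutant replicate D, so the groups overlapped. The log2 fold change was −1.10 ± 0.372 (adjusted p = 0.039 by edgeR). The call was lost without wildtype replicate B or C or mutant replicate A or C, and the log2 fold change ranged from −1.58 to −0.77 over the 6 fits. The 3 rows for beta forms (PPP2R2B, *ppp2r2ba* and *ppp2r2bb*) summed to 5.39, 6.09 and 6.07 CPM in wildtype and 4.86, 4.52 and 3.87 CPM in mutant libraries. The alpha and delta forms (PPP2R2A, *ppp2r2ab* and *ppp2r2d*) had log2 fold changes of 0.07, 0 and 0.02. Among the 3 genes of the B'', or B72, type, *ppp2r3b* had 18.5, 16.4 and 17.6 CPM in wildtype and 15.7, 14.9 and 13.6 CPM in mutant libraries, a log2 fold change of −0.24 ± 0.0773 (adjusted p = 0.03 by edgeR), lost without wildtype replicate A or C or mutant replicate C or D. The relative *ppp2r3a* had the same log2 fold change of −0.24 and did not pass (adjusted p = 0.091).

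The calcineurin B gene *ppp3r1b*, for the calcium-binding subunit, had 99.5, 98.4 and 97.4 CPM in wildtype and 113, 116 and 107 CPM in mutant libraries. It rose by 0.18 ± 0.0446 (adjusted p = 0.0084 by edgeR) in all 12 alternative fits, and its copy *ppp3r1a* did not pass, at −0.08. PP4 is a nuclear and centrosomal relative of PP2A with a role in DNA repair. Its regulatory symbol ppp4r1 has a row in capitals and one in lower case, and these moved together. The row PPP4R1 had 39.2, 45.0 and 43.9 CPM in wildtype and 56.8, 59.2 and 56.4 CPM in mutant libraries, a rise of 0.43 ± 0.0579 (adjusted p = 0.00025 by edgeR). The row *ppp4r1* had 11.9, 14.8 and 16.1 CPM in wildtype and 16.4, 17.8 and 18.9 CPM in mutant libraries. It rose by 0.31 ± 0.104 (adjusted p = 0.04 by edgeR), a call lost when wildtype replicate A or B or mutant replicate C or D was left out. The other PP4 regulatory genes (*ppp4r2a*, *ppp4r2b*, *ppp4r4* and PPP4R1L) did not pass, with log2 fold changes from −0.28 to 0.04.

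Of 16 PPM enzymes, 2 rose (12.5%) and 1 fell (6.25%), against 17.4% and 17.1% of all genes. The gene *ppm1h*, whose mammalian product removes phosphate from Rab GTPases, had 12.6, 13.96 and 14.5 CPM in wildtype and 20.04, 20.7 and 20.6 CPM in mutant libraries. The groups were well separated, and the rise was 0.58 ± 0.0712 (adjusted p = 0.00014 by edgeR), between 0.52 and 0.62 in all 12 alternative fits. The PP2C alpha gene *ppm1aa* had 34.5, 34.0 and 38.3 CPM in wildtype and 41.1, 38.9 and 40.1 CPM in mutant libraries. It rose by 0.17 (adjusted p = 0.047 by edgeR), a call kept in 3 of 12 alternative fits, and without a library only when that was wildtype replicate C. The PP2C beta gene *ppm1ba* had 16.1, 14.7 and 16.4 CPM in wildtype and 13.5, 12.9 and 13.1 CPM in mutant libraries, a log2 fold change of −0.26 ± 0.0724 (adjusted p = 0.017 by edgeR). Leaving out wildtype replicate A or C or mutant replicate C ended that call. Their copies *ppm1ab* and *ppm1bb* did not pass, at 0.04 and −0.07. The lowest log2 fold change of any member, −1.23 for *ppm1nb*, also did not pass (adjusted p = 0.072 by edgeR). Its CPM was 0.349, 0.374 and 0.631 in wildtype and 0.264, 0.252 and 0.0534 in mutant libraries. This rested on 13, 14 and 29 counts in wildtype and 11, 11 and 2 in mutant libraries, near the filter on low counts.

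Partners of these enzymes with names outside the rule were read from a list of 109 symbols: inhibitors, assembly factors, complex members, effectors and related phosphatases. Of these, 75 were in the table and 73 were tested. At an adjusted p under 0.05, 7 rose (9.59%) and 11 fell (15.1%), shares below those of all genes given above. No partner was called at over 2-fold by edgeR, against 4.95% of all genes. Counting any fold, 18 passed by edgeR (24.7%, against 34.5% of all genes). By the DESeq2 Wald test 18 passed and by limma-voom 19, where 30.5% and 34.4% of all genes passed. An unadjusted p under 0.05 in edgeR was found for 29 of the 73 partners and for 8941 of all 20021 genes. Among the 12 PP1 partners tested, 0 passed by edgeR, against 34.5% of all genes. Of these 12, 1 had an unadjusted p under 0.05, 1 passed by the DESeq2 Wald test and 0 by limma-voom. For the 12 calcineurin partners, 0 passed by any of these tools, against the same shares of all genes, with 3 at an unadjusted p under 0.05.

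The PP2A partners held 12 of the 18 genes that passed, 5 higher (18.5%) and 7 lower (25.9%) of 27 tested, against 17.4% and 17.1% of all genes. They were divided by complex after their values had been seen, so the division is a description. Shares of partners were not matched for level. Among all genes, the share that passed at any fold grew from 18.4% in the lowest bin by mean CPM to 46.8% in the highest. In the STRIPAK complex, in which striatins join PP2A to STE20-type kinases, 4 of 11 genes rose (36.4%, against 17.4% of all genes). The striatin gene *strn4* had 35.2, 39.7 and 38.7 CPM in wildtype and 51.0, 49.6 and 51.5 CPM in mutant libraries, a rise of 0.42 ± 0.0558 (adjusted p = 0.00023 by edgeR). The others were *fgfr1op2* (0.31), *slmapa* (0.30) and *mob4* (0.21). All 5 SET and ANP32 genes, whose mammalian products are nuclear PP2A inhibitors and histone chaperones, fell by small amounts, with log2 fold changes from −0.20 to −0.13. The largest of these was that of *anp32e*, at 424, 397 and 409.7 CPM in wildtype and 356, 362 and 357 CPM in mutant libraries (adjusted p = 0.0036 by edgeR). Groups did not overlap in any of the 5, as they did not in 49.1% of all genes.

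The gene *igbp1* encodes alpha4, a chaperone of PP2A-like catalytic subunits. It had 44.2, 43.9 and 42.7 CPM in wildtype and 36.9, 35.4 and 36.0 CPM in mutant libraries, a log2 fold change of −0.27 ± 0.0486 (adjusted p = 0.0015 by edgeR). The gene *tiprl*, for another binder of these subunits, had −0.24 (adjusted p = 0.015 by edgeR). The other tested genes of assembly and methylation, *lcmt1* (−0.12) and *ppme1* (−0.05), did not pass (adjusted p = 0.14 and 0.54 by edgeR). In the Greatwall pathway, which inhibits PP2A with B55 at mitosis, *arpp19a* had 172, 165 and 177 CPM in wildtype and 234, 217 and 213 CPM in mutant libraries. It rose by 0.37 ± 0.0484 (adjusted p = 0.00021 by edgeR), and the other 4 genes of that group, from 0.11 to 0.14, did not pass.

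**Figure D5:**
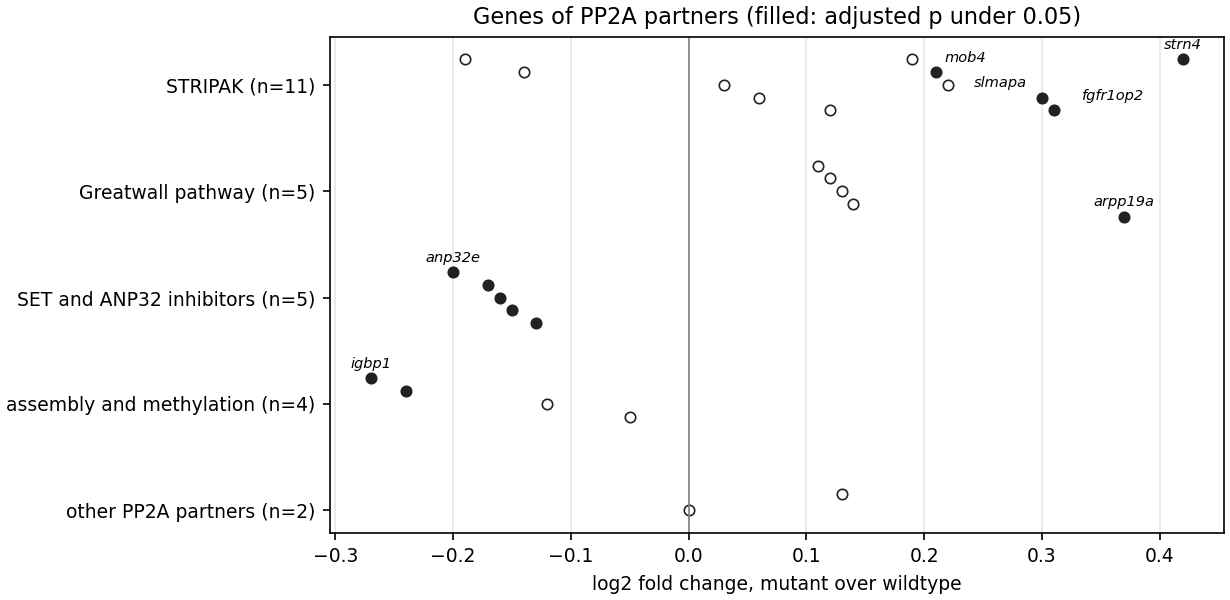
Log2 fold change of mutant over wildtype (horizontal axis) for the 27 tested genes of PP2A partners, in rows by complex or function (rows drawn up after the values were seen); filled points had an adjusted p under 0.05. All 5 SET and ANP32 genes lie between −0.20 and −0.13, and the 4 filled STRIPAK genes lie between 0.21 and 0.42.

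Related phosphatases and phosphatase-like genes with symbols outside the rule were read from the same list. Of 17 tested, 2 rose (11.8%, against 17.4% of all genes) and 4 fell (23.5%, against 17.1%). The lowest log2 fold change among them was that of *rpap2*, for a phosphatase of the RNA polymerase II tail, with 17.8, 16.9 and 16.7 CPM in wildtype and 10.9, 10.3 and 10.9 CPM in mutant libraries. The groups were far apart, with a log2 fold change of −0.67 ± 0.07 (adjusted p = 4.6e-05 by edgeR) that stayed between −0.69 and −0.64 in the alternative fits. Of the others, *ublcp1*, for a proteasome phosphatase, had −0.33, *pptc7a* −0.30 and the mitochondrial phosphatase gene *pgam5* −0.18. The call of *pptc7a* was lost without any of the wildtype replicates or mutant replicate C, with the DESeq2 Wald test and with no filter on low counts, at an adjusted p of up to 0.17. The gene *tab1*, whose product is a PP2C-like partner of the kinase TAK1 and has no phosphatase activity, rose by 0.41 ± 0.0853 (adjusted p = 0.0038 by edgeR), with 15.8, 17.2 and 16.6 CPM in wildtype and 20.4, 20.5 and 25.0 CPM in mutant libraries. The gene *ssu72*, for another phosphatase of the polymerase tail, rose by 0.20.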

How the data were processed

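Per the labels and the study's methods, the authors aligned strand-specific reads to the danRer7 transcriptome with RSEM 1.2.28 after FastQC, removed ribosomal RNA counts and deposited gene-level expected counts, estimates without normalization that need not be whole. The labels also name GRCz10, and which build each step used is not given in the sources used here. RSEM divides reads between similar transcripts, so values of close paralogs and of rows that share a symbol are uncertain: 23 of 102 members had whole counts (within 0.005) in every library. The authors' own comparison columns (fold changes and p-values) were not used. Column names carry a genotype and a letter, so columns were assigned to genotypes, and 0 columns of other samples were present.

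Expected counts were rounded to whole numbers, filtered with filterByExpr, scaled by TMM and tested with edgeR 4.0.16 (estimateDisp, glmQLFit and glmQLFTest) in R 4.3.3, with limma 3.58.1 and DESeq2 1.42.0 as alternatives. P-values were adjusted by Benjamini-Hochberg over 20021 genes. The SE is the size of the log2 fold change over the square root of F. The procedure was tested on simulated counts, in which 200 genes with a mean CPM over 1 were changed by 2 on the log2 scale. That test does not cover smaller changes or genes at lower levels. Depth of 36310355 to 45161306 counts leaves genes with few counts imprecise, as their standard errors show. Named genes were members called at over 2-fold, the 8 largest rises and 8 largest falls among members with adjusted p under 0.05, mean CPM of at least 1 and no overlap between groups, all catalytic subunits, the 3 largest rises and falls among partners by the same conditions, and the deleted genes. Lack of overlap in genes named for their rise or fall was set by this rule and adds no support. Members printed outside this rule were chosen after their values were seen. The members and lists were chosen with earlier results of these data known. RefSeq annotation of GRCz12tu was used for gene names and gene order only.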

Additional observations from a re-analysis of the deposited data

How the results depend on the processing

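No paired analysis was possible because the columns carry letters and not the replicate numbers of the labels. The 5 members called at over 2-fold became 2 with the DESeq2 Wald test, 2 where genes needed a CPM over 1 in at least 3 libraries (which left 16793 genes, 552 of them called, against 992), 9 with a threshold of 1.5-fold, and 1 to 4 with a library left out. Over all genes, 882 of 20021 were called with the DESeq2 Wald test, and 881 to 1039 with a library left out. The fewest members, 1, came without wildtype replicate B, where 946 of 20563 genes were called. The number of all genes called at 1.5-fold is not given here. At any fold, the 20 higher members became 11 and the 12 lower members 5 at an adjusted p under 0.01, and with a library left out they ranged from 12 to 20 and from 7 to 11. The higher count was 12 or 13 without wildtype replicate A or B or mutant replicate C, and the lower count was 7 without wildtype replicate C or mutant replicate C. The share of all genes that passed at any fold fell in these fits as well, from 34.5% in the main fit. It was 24.4%, 26.5% and 25.1% without wildtype replicates A, B and C, and 27.5% without mutant replicate C. Of the 32 members that passed, 16 did so in every alternative fit that tested them, 11 higher and 5 lower. The matching count over all genes is not given here. The 11 lower partners became 5 at an adjusted p under 0.01, and ranged from 8 to 15 with a library left out, when the 7 higher partners ranged from 6 to 9. The median log2 fold change of members, 0.01, was 0 under upper-quartile scaling and 0 to 0.02 with a library left out. Among 512 values of named genes under alternatives, 461 stayed on their side of the threshold, 45 lost the call and 6 gained it. None of the genes that passed changed sign, and 7 values of 4 genes that did not pass (*ppp3ca*, *ppp4ca*, *ppp4cb* and *ppp5c*) did. Other scalings moved the median of all genes by at most 0.009 on the log2 scale. Depth limits the genes called on few reads.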

Other observations

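In the RefSeq gene order of GRCz12tu, 88 members could be placed, and 3 of them lay on the chromosome of *dusp6*: *ppp1r3ab* with 95 genes between, *ppp6r3* with 164 and *ppm1h* with 341. On the chromosome of *dusp2* there were 0. Their log2 fold changes of mutant over wildtype were −0.77, −0.04 and 0.58.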
